A study of Mus musculus with 4 samples.

Results

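The 4 Hox clusters of the mouse genome were examined for occupancy by CTCF, a zinc-finger protein found at insulators and at the bases of chromatin loops that cohesin forms. A CTCF peak belonged to a cluster when it overlapped one of 4 windows of the mm9 genome build: chr6:52050000-52300000 for Hoxa, chr11:96000000-96270000 for Hoxb, chr15:102720000-102900000 for Hoxc and chr2:74460000-74640000 for Hoxd. The windows held 111 peaks in 3 peak lists. Peaks that shared at least 1 bp were joined into union regions, which gave 47 Hox regions of 70742 in the genome: 13 in Hoxa, 17 in Hoxb, 10 in Hoxc and 7 in Hoxd. The choice of windows used position alone and no peak score.

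The cells were MC3T3-E1 subclone 4, a preosteoblast line from mouse calvaria (strain C57BL/6), at passages 28 to 31. They were harvested for chromatin immunoprecipitation and sequencing (ChIP-seq) as preosteoblasts at day 0, as matrix-depositing osteoblasts at day 9 and as mineralizing osteoblasts at day 28. Differentiation was induced with ascorbic acid (280 µM) plus beta-glycerophosphate (10 mM), and every stage had the same CTCF antibody. All groups are thus 1 subcloned line, with no transgene or deletion named in the labels.

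Hox genes encode homeodomain transcription factors that give cells their position along the body axis. Their order along the chromosome matches the order of the body parts they pattern, so that genes at one end act in the hindbrain and neck and genes at the other end act in the lower trunk, limbs and digits. CTCF sites between Hox genes are known from other cell types as borders between active and Polycomb-silenced stretches of a cluster. The skull vault forms largely from head cells in which Hox genes are silent.

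All 38 Hox genes considered were found in the RefSeq gene table of GRCm38, which is not the build of the peaks, so the table was used only for the order of the genes. With rising coordinate, Hoxa runs from Hoxa2, which patterns skeletal elements of the second pharyngeal arch, to Hoxa13, which patterns digits. The other clusters run the opposite way. Hoxb goes from Hoxb13, a gene of the tail and prostate, to Hoxb1, a gene of the hindbrain. Hoxc goes from Hoxc13, a gene of hair and nails, to Hoxc4, a gene of the neck vertebrae. Hoxd goes from Hoxd13, a digit gene, to Hoxd1. No region was assigned to a single gene, promoter or exon. The regions are numbered below from the low-coordinate end of each window.

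Each stage was represented by 1 deposited list, of 67679 peaks at day 0, 42774 at day 9 and 45793 at day 28. No comparison between stages has replicate error, so no test was made and no p-value is given. Wilson intervals (95%) cover counting error only. The score of a peak is the authors' value, taken to be MACS's −10 log10 of the p-value, and it was used only to rank peaks within a list. Scores of 3100 or more were treated as tied and are called saturated. The read depth behind the lists is unknown, and a deeper library gives more and higher-scoring peaks.

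Most of the CTCF regions found in the Hox clusters were in all 3 lists, by counts with no test. A peak was found at all 3 stages in 30 of the 47 regions (63.8%, Wilson interval 49.5 to 76.0). Over all regions of the genome this share was 52.3%, inside that interval. In the 500 kb on each side of the windows it was 57.6% (51.0 to 63.9). The 30 comprised 9 of 13 regions in Hoxa, 11 of 17 in Hoxb, 4 of 10 in Hoxc and 6 of 7 in Hoxd. The Wilson interval was 48.7 to 97.4% for Hoxd and 16.8 to 68.7% for Hoxc, so the intervals of the highest and the lowest cluster overlapped. Peaks at day 0 alone made up 12 Hox regions (25.5%, 15.3 to 39.5), where the genome had 31.1%, also inside the interval. A further 2 regions lacked a day 0 peak but had one in both later lists (1.5% in the genome). Another 2 lacked only a day 9 peak (7.53% in the genome), and 1 was found at day 28 alone (2.74% in the genome). No Hox region was found at day 9 alone (1.25% in the genome) or in both earlier lists without day 28 (3.6% in the genome). With all lists trimmed by score to the 42774 peaks of the day 9 list, 5 of the 12 regions found at day 0 alone were still in that class and the other 7 were in no list. The 5 were 12.8% of the 39 Hox regions left, against 9.19% of the 51583 regions left in the genome, so the Hox share was then the higher of the pair. This order rests on 5 regions, and no interval was computed for it.

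**Figure D1:**
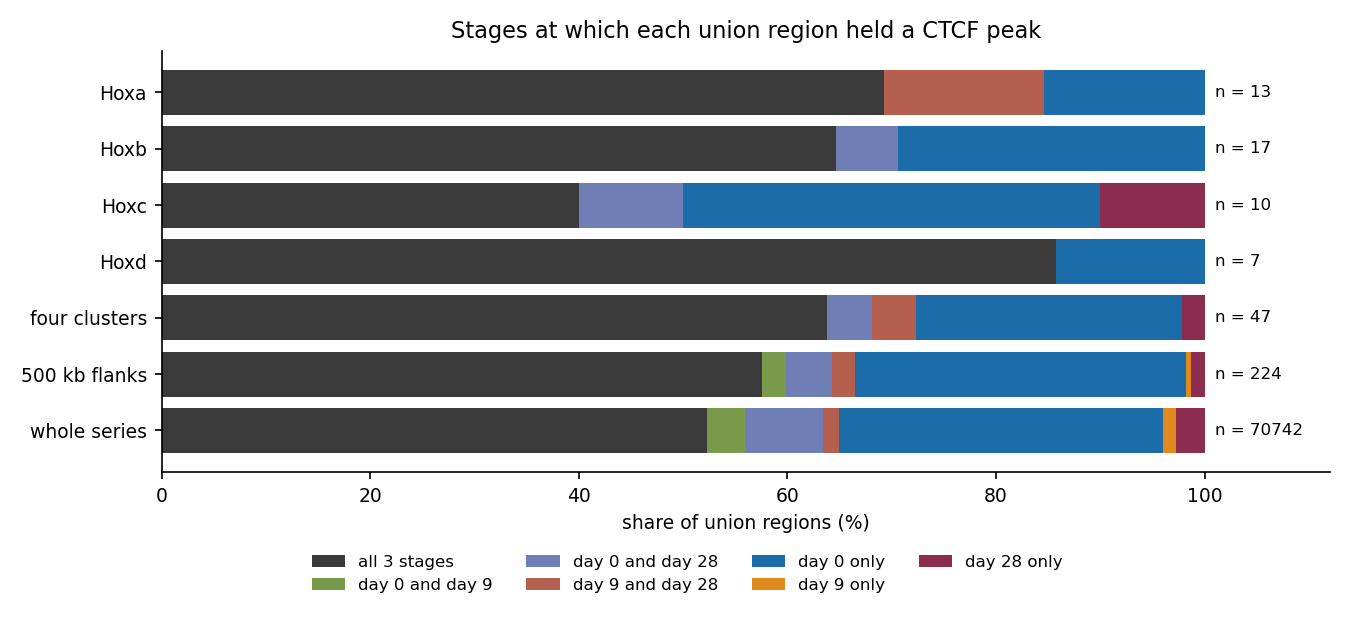
Share of union regions (x axis, percent) by the stages at which they held a CTCF peak, for each Hox window, the 4 windows together, their 500 kb flanks and the whole genome. The share found at all 3 stages was 69.2% in Hoxa, 64.7% in Hoxb, 40% in Hoxc and 85.7% in Hoxd, on 13, 17, 10 and 7 regions.

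CTCF peaks in the Hox clusters held saturated scores more often than the lists as a whole, by counts with no test. The Hox peaks had a median percentile of 74.0 in the first list (day 0), 77.3 in the second (day 9) and 78.7 in the last (day 28), where 50 is the middle of a list. The intervals of these medians, 42.6 to 91.0, 49.1 to 87.7 and 53.9 to 90.7, included 50 at day 0 and day 9. Hoxc had the lowest median percentile of the clusters at day 0 (41.6 on 9 peaks, below the middle of the list) and day 28 (54.1 on 6 peaks). At day 9 it had 70.4 on 4 peaks, and Hoxd was lower with 61.9. The peaks of the 3 lists are not all from the same Hoxc regions. Saturated scores were held by 17 of 44 Hox peaks at day 0 (38.6%, 25.7 to 53.4), against 18.1% of the whole list. At day 9 they were held by 7 of 32 (21.9%, 11.02 to 38.8), against 11.3%, and at day 28 by 15 of 35 (42.9%, 28.0 to 59.1), against 18.7%. The day 9 interval included the 11.3% of the whole list. The saturated peaks at day 9 were 5 of 11 in Hoxb, 1 of 11 in Hoxa, 1 of 6 in Hoxd and 0 of 4 in Hoxc. Only Hoxc, with 1 of 6 (16.7%), was under the whole list at day 28. The flanks, 500 kb on each side of every window, had 20.3%, 15.97% and 25% saturated peaks at the 3 stages. In Hoxb and Hoxd the window had a larger saturated share than its own flanks at every stage. In Hoxa this held at day 0 and day 28, and in Hoxc at no stage. In the flanks the median percentiles were 54.0, 55.2 and 54.2.

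A score saturated in at least 1 list was reached by 18 of the 47 regions, and by 17.8% of regions in the genome. Saturation in all 3 lists was reached by 7 Hox regions (6.63% of regions in the genome). These were Hoxa region 6 (chr6:52171192-52172411), Hoxb region 1 (chr11:96006458-96007576), Hoxb region 9 (chr11:96122648-96123476), Hoxb region 13 (chr11:96155587-96156641), Hoxb region 15 (chr11:96172394-96173630), Hoxb region 17 (chr11:96268514-96269638) and Hoxd region 7 (chr2:74553546-74554563). Hoxb thus had 5 of the 7, and Hoxc had none.

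**Figure D2:**
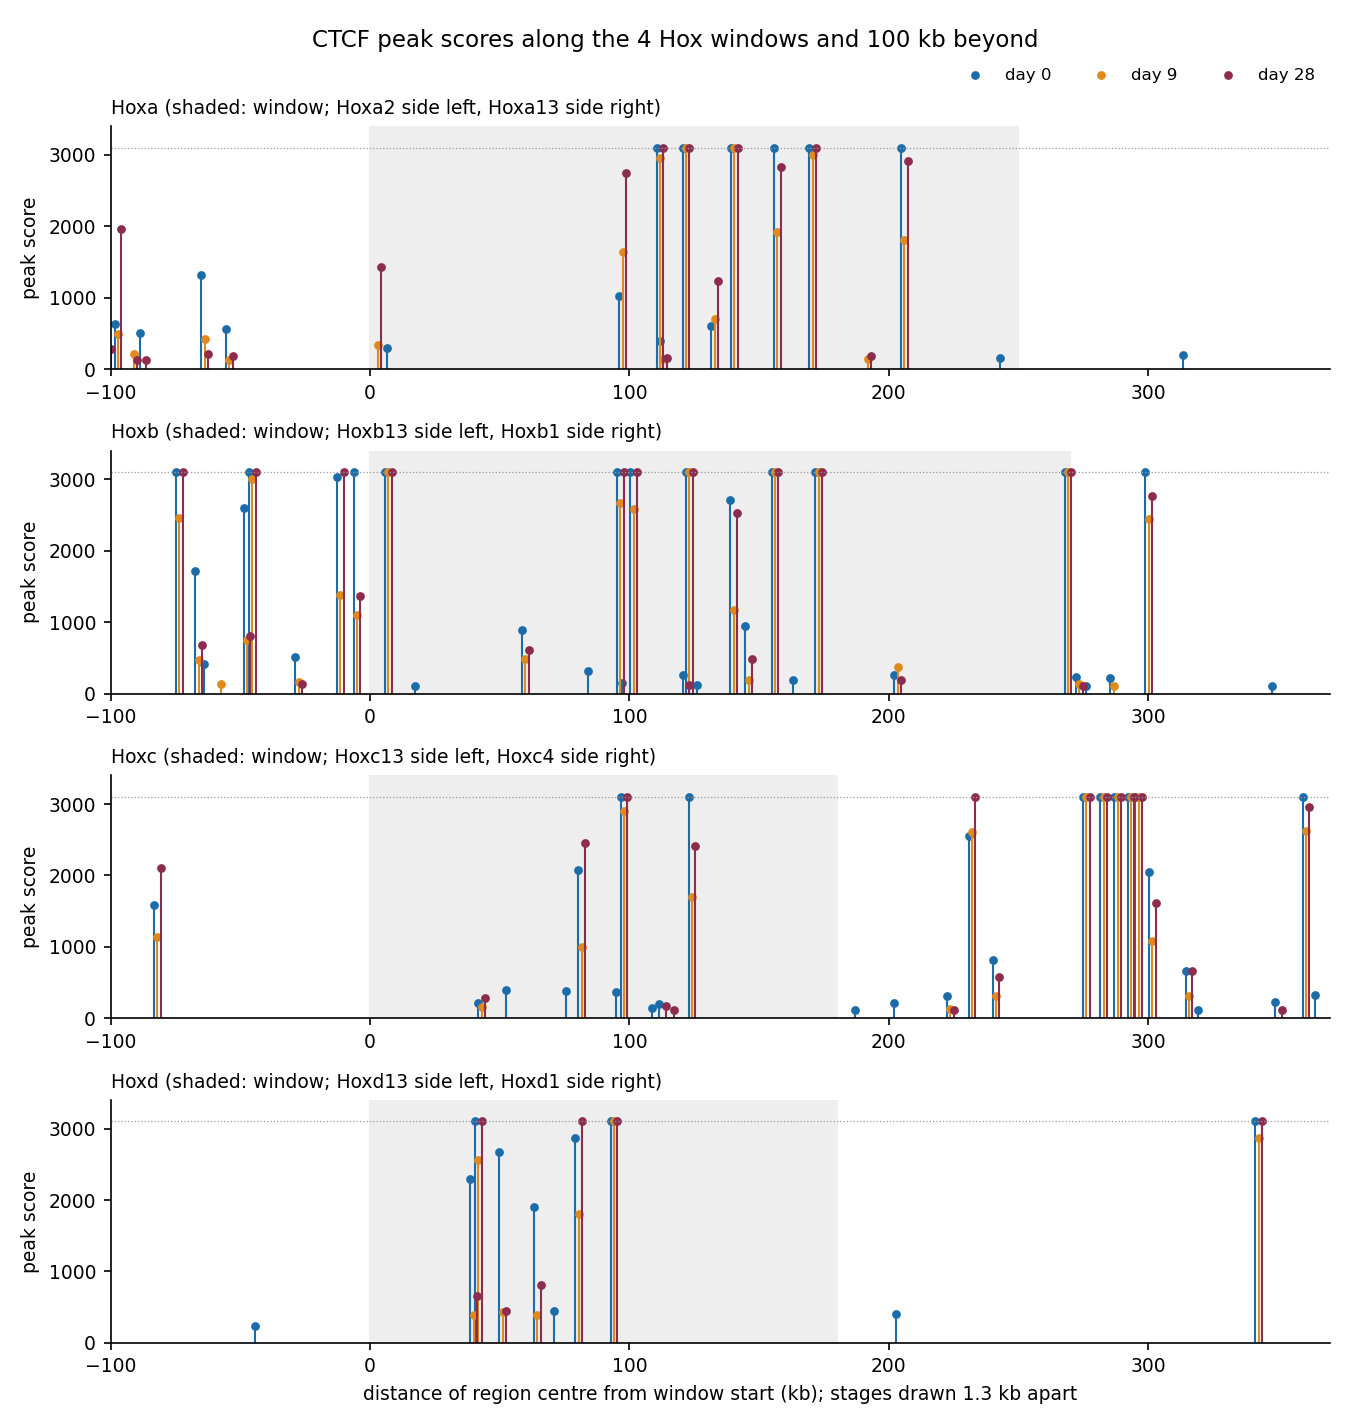
Peak score (y axis, saturated at 3100, dotted line) against the distance of the region from the start of its Hox window (x axis, kb), with day 0, day 9 and day 28 drawn side by side and the window shaded. Of the 47 regions in the windows, 18 reach the dotted line at some stage, and Hoxd holds 7 regions within 55.0 kb, with empty stretches on both sides.

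In the Hoxa cluster, the sites that were strong throughout lay between 52161031 and 52256525 on chromosome 6. Hoxa region 4 (chr6:52161031-52162515) was saturated at day 0 and day 28 and scored 2951 at day 9. Hoxa region 6 was saturated at every stage and had the highest mean percentile of the cluster. Hoxa region 8 (chr6:52189935-52190991) was saturated at day 0 and day 28, with 3090 at day 9, just under the limit. Hoxa region 10 (chr6:52219952-52221256) was likewise saturated at day 0 and day 28, with 2997 at day 9. Hoxa region 9 (chr6:52206533-52207460) and Hoxa region 12 (chr6:52255471-52256525) were saturated only at day 0. Region 9 scored 1918 at day 9 and 2834 at day 28, and region 12 scored 1802 and 2913. The 6 Hoxa regions with a saturated score followed each other at a median distance of 16.5 kb between centres (10.0 to 35.4 kb).

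Toward the Hoxa2 end the cluster was sparse. No peak was called at any stage over 89.1 kb between Hoxa region 2 and Hoxa region 3 (chr6:52057845-52146945), a gap reached by 8.52% of all gaps between neighbouring regions. Hoxa region 1 (chr6:52052568-52053245), beyond this gap, was absent from the day 0 list and scored 329.7 at day 9 and 1434 at day 28. Among the 1063 regions of the genome with peaks in the later lists but none at day 0, only 16 had a higher day 28 score (1.51%), and 146 had a higher day 9 score (13.7%). The nearest day 0 peak was Hoxa region 2 (chr6:52057481-52057845), 4.24 kb away, which scored 292.9 and was found at day 0 alone. Peaks of different stages thus stood next to each other at this edge of the window without overlapping.

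The remaining incomplete Hoxa sites were weak. Hoxa region 11 (chr6:52241547-52242214) was found at day 9 with a score of 141.8 and at day 28 with 183.2, and the nearest day 0 peak was 13.5 kb away. Hoxa region 13 (chr6:52294064-52294367), 304 bp wide, was found at day 0 alone with a score of 152.3. Hoxa region 5 (chr6:52162539-52163483) had the lowest mean percentile of the Hoxa regions found at all stages, with scores of 393.4, 143.3 and 150.5 at day 0, day 9 and day 28. It began only 23 bp after the end of the saturated region 4.

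Hoxb held the largest number of CTCF regions. Besides the 5 regions saturated at every stage, Hoxb region 5 (chr11:96096021-96096948) and Hoxb region 7 (chr11:96101308-96102072) were saturated at day 0 and day 28, and scored 2675 and 2589 at day 9. Hoxb region 11 (chr11:96139745-96140579) followed with 2709 at day 0, 1168 at day 9 and 2525 at day 28. Hoxb region 3 (chr11:96059453-96060328) scored 893.9, 481.2 and 605.8. Hoxb region 12 (chr11:96145576-96146296) scored 944.5, 186.1 and 480.6. Raw scores of different lists were not compared, and ranks are given further on. Hoxb region 16 (chr11:96203156-96203698) was the lowest of the regions found at all stages, with 262.3, 369.8 and 195.4.

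Weak day 0 peaks were scattered among the strong Hoxb sites. The 5 regions found at day 0 alone were regions 2, 4, 6, 10 and 14. Region 4 (chr11:96085177-96085539) scored 316.7, region 14 (chr11:96164324-96164757) 195.6, region 6 (chr11:96098442-96098789) 143.1, region 10 (chr11:96127038-96127405) 118.9 and region 2 (chr11:96018452-96018896) 111.5. Hoxb region 8 (chr11:96121494-96122216) was found at day 0 with 263.6 and at day 28 with 121.8, and lay 431 bp before the saturated region 9. Toward the Hoxb1 end, 64.8 kb without a peak separated region 16 from region 17, a gap reached by 12.4% of all gaps.

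Hoxc had few strong sites. Hoxc region 6 (chr15:102817494-102818408) was the highest, saturated at day 0 and day 28 and at 2903 at day 9. Hoxc region 10 (chr15:102843760-102844479) was saturated at day 0 and scored 1695 at day 9 and 2413 at day 28. Hoxc region 4 (chr15:102801022-102802085) scored 2070, 1002 and 2452 at the 3 stages. Hoxc region 1 (chr15:102762775-102763324) was the lowest of the Hoxc regions found throughout, with 213.2, 150.2 and 287.0.

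The other 6 Hoxc regions were incomplete. Day 0 alone held region 2 (chr15:102773641-102774154, score 398.9), region 3 (chr15:102796812-102797169, score 383.3), region 5 (chr15:102815940-102816369, score 363.8) and region 7 (chr15:102829635-102830133, score 148.6). Of all 21988 regions found at day 0 alone, 11.54% scored higher than region 2, 12.6% higher than region 3 and 14.1% higher than region 5. Region 8 (chr15:102832545-102833169) was found at day 0 with 200.6 and at day 28 with 170.6. Region 9 (chr15:102835722-102836327) was the only Hox region found at day 28 alone, and its score of 116.4 was exceeded by 74.6% of the 1939 such regions. Regions 7, 8 and 9, all weak, were neighbours, with 2.41 kb between region 7 and region 8 and 2.55 kb between region 8 and region 9. The largest gap between Hoxc regions was 22.7 kb, between region 2 and region 3, a gap reached by 34.2% of all gaps.

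Hoxd was the most compact cluster by the span of its regions. It also had the largest share of regions found at all stages (6 of 7), though the intervals of the clusters overlapped. Its 7 regions spanned 55.0 kb, with no gap over 12.8 kb. Hoxd region 2 (chr2:74501249-74502218) was saturated at day 0 and day 28 and scored 2564 at day 9. Hoxd region 6 (chr2:74540027-74540720) scored 2869 at day 0 and 1805 at day 9 and was saturated at day 28 alone. Hoxd region 7 was saturated throughout. Hoxd region 5 (chr2:74532139-74532558) was the exception to constancy, found at day 0 alone with 443.6, a score exceeded by 9.10% of the regions of its class. It was the highest-scoring of the 12 Hox regions found at day 0 alone, whose scores ran from 111.5 to 443.6 with a median of 244.3. The median over all regions of that class was 175.2.

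The remaining Hoxd sites were found at every stage and were saturated at none. Hoxd region 1 (chr2:74499596-74500394) scored 2299 at day 0, 392.9 at day 9 and 661.2 at day 28. Hoxd region 3 (chr2:74510856-74511497) scored 2669, 427.8 and 443.7. Hoxd region 4 (chr2:74524241-74524831) scored 1897, 382.8 and 807.9. All of them lay on the Hoxd13 side of region 5.

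The density of CTCF regions in a Hox window differed from that of its surroundings in both directions. Hoxa held 5.2 regions per 100 kb and its flanks 3. Hoxd held 3.89 per 100 kb and its flanks 1.3. In Hoxb and Hoxc the window was the sparser part, with 6.30 and 5.56 regions per 100 kb in the window and 9.5 and 8.6 in the flanks. The Hox windows themselves thus ranged from 3.89 to 6.30, and their flanks from 1.3 to 9.5. The order of the clusters depended on the window limits. With windows shortened by 20 kb at each end, the densities were 4.76 in Hoxa, 6.09 in Hoxb, 7.14 in Hoxc and 5 in Hoxd. Within 250 kb of the window the Hoxd flanks were sparser still, with 0.6 regions per 100 kb.

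The genome was tiled with windows of the same length as each cluster, as a description and not as a test. The median window held 4 regions at the length of Hoxa, 5 at that of Hoxb and 3 at that of Hoxc and Hoxd. At least as many regions as in the cluster were held by 17.9% of windows for Hoxa, 12.2% for Hoxb, 16.7% for Hoxc and 28.4% for Hoxd. Counting only regions found at all 3 stages, these shares were 12.2%, 8.81%, 28.4% and 15.9%. Tiling began at the first base of each chromosome, so unassembled ends are among the windows. Over windows with at least 1 region, the shares for all regions were 21.5% for Hoxa, 14.3% for Hoxb, 21.3% for Hoxc and 36.2% for Hoxd.

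**Figure D3:**
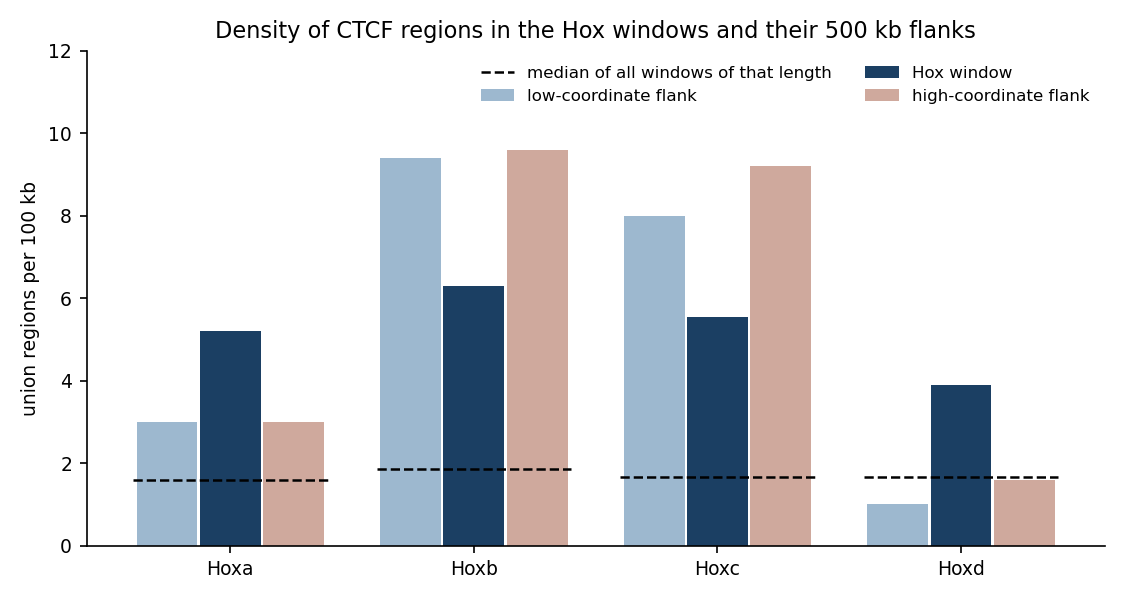
Union regions per 100 kb (y axis) in each Hox window and in its low- and high-coordinate 500 kb flank, with a dashed line at the median of all windows of that length. Every window stands above its dashed line, between 3.89 and 6.30. The flanks stand below the window at Hoxa and Hoxd and above it at Hoxb and Hoxc.

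Neighbouring Hox regions lay at a median distance of 10.8 kb between centres (quartiles 5.27 and 14.5, 43 distances), against 13.1 kb (4.77 and 33.6) over the genome. Distances that cross the edge of a window do not enter the Hox values, which shortens them relative to the genome. The median was 13.9 kb in Hoxa, 10.7 kb in Hoxb, 8.10 kb in Hoxc and 8.73 kb in Hoxd. A gap under 2000 bp separated 5 of the 43 neighbouring pairs (11.6%), and 15.3% of pairs in the genome. These pairs were Hoxa regions 4 and 5, Hoxb regions 5 and 6, Hoxb regions 8 and 9, Hoxc regions 5 and 6, and Hoxd regions 1 and 2.

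At the edges of the windows the clusters differed in the distance to the next CTCF region outside. The Hoxb window had no empty margin: the next region on the Hoxb13 side (chr11:95994621-95995282) lay 11.2 kb before region 1, and the next on the Hoxb1 side (chr11:96273233-96273695) 3.59 kb after region 17. The outer region on the Hoxb13 side was saturated at day 0, with 1099.6 at day 9 and 1371 at day 28. The outer region on the Hoxb1 side was found at all stages with scores of only 236.4, 140.1 and 106.6.

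The Hoxd regions were bordered by 82.2 kb without a peak on the Hoxd13 side and by 109.1 kb on the Hoxd1 side. Gaps this long made up 9.35% and 6.60% of all gaps. Both began inside the window, which held 39.6 kb of the first and 85.4 kb of the second. The nearest outer regions, chr2:74416272-74417379 and chr2:74663635-74664451, were both found at day 0 alone, with scores of 230.9 and 401.2. Hoxc was bordered by 124.4 kb without a peak on the Hoxc13 side (5.54% of gaps are as long), where the next region (chr15:102637605-102638390) was found at all stages with 1589, 1136 and 2097. On the Hoxc4 side the gap was 63.6 kb (12.7% of gaps are as long) and ended at a weak day 0 peak (chr15:102908103-102908455, score 111.7). The Hoxc window itself held 42.8 kb of the gap on the Hoxc13 side and 55.5 kb of that on the Hoxc4 side. Hoxa region 1 was bordered by 56.6 kb without a peak (14.5% of gaps are as long), up to chr6:51995472-51995976, which scored 566.7, 129.7 and 183.6. Beyond region 13 the gap was 70.2 kb (11.3% of gaps are as long), up to a day 0 peak at chr6:52364597-52364819 with a score of 193.9.

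Changes of rank between stages were read from the regions that held exactly 1 peak in each list and were saturated in none. Their scores were turned into percentiles (0 to 100) over the same 23673 regions in each list. Of the Hox regions, 12 qualified. Between day 0 and day 9, 6 of the 12 stood higher and 6 lower (50.1% of all such regions stood higher). Between day 9 and day 28, 8 stood higher (49.2% of all), and between day 0 and day 28 also 8 (49.3% of all). The medians were 1.17, 1.48 and 5.83 percentile points, against 0.0465, -0.253 and -0.368 over all such regions. These counts and medians depended on the set of peaks ranked over. With percentiles over the whole lists, 3 of the 12 stood higher at day 9 than at day 0 (10.6% of all), 8 higher at day 28 than at day 9 (62.6% of all) and 4 higher at day 28 than at day 0 (18.9% of all). The medians were then -11.1, 4.96 and -10.6 points, against -17.8, 3.48 and -14.2 over all ranked regions. The first and the last median of the Hox regions thus changed sign, while all 3 were above the median of all ranked regions on both scales. The intervals of the Hox medians included the median of all ranked regions on both scales. Over shared regions they were -23.3 to 45.1, -8.11 to 9.74 and -13.6 to 24.9. With saturated regions kept, the day 28 minus day 0 median was 4.88 points both in the Hox windows and over all ranked regions.

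All 3 ranked Hoxd regions stood lower at day 9 than at day 0. Region 3 went from percentile 93.6 to 59.0, a difference of -34.5 points, and stood at 45.5 at day 28. A day 28 minus day 0 difference as low as its -48.0 points was found in 3.04% of all ranked regions. Region 1 went from 86.9 to 55.8 (-31.1 points) and stood at 58.1 at day 28, and region 4 went from 78.3 to 54.9 (-23.3 points) and stood at 64.7 at day 28. Day 9 minus day 0 differences as low as those of regions 3, 1 and 4 were found in 6.67%, 8.33% and 14.0% of all ranked regions. The other shared Hoxd regions, 2, 6 and 7, were saturated in at least 1 list and could not be ranked this way. With saturated regions kept, their day 9 minus day 0 differences were -0.782, 9.42 and 9.75 points. Their day 28 minus day 0 differences were 4.88, 23.5 and 4.88 points, where 4.88 is the value of Hox regions saturated in both lists. Among the 6 shared Hoxd regions, the first difference was then positive in 2 and negative in 4. The second was positive in 3 and negative in 3. The 9.75 points of region 7 are likewise the value of Hox regions saturated at both day 0 and day 9. Such ties cannot show a rise or a fall, so these counts do not settle how far the fall extended. Region 6, unsaturated at day 0 and day 9, stood higher at both later stages.

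In Hoxa, region 3 (chr6:52146945-52147875) and region 7 (chr6:52182290-52183425) stood higher after day 0. Region 3 scored 1019, 1634 and 2748 and went from percentile 50.9 at day 0 to 97.6 at day 9 and 98.3 at day 28. Region 7 scored 603.7, 704.5 and 1230 and went from 29.6 to 76.5 and 77.2. A day 9 minus day 0 difference as large as that of region 3 (46.7 points) or region 7 (47.0 points) was found in 2.87% and 2.80% of all ranked regions. Hoxa region 5, between them, stayed low at 16.4, 13.9 and 9.78. Region 3 was the first site after the empty stretch on the Hoxa2 side.

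On the whole-list scale, where the median of all ranked regions was itself -17.8 points, the day 9 minus day 0 difference was 12.9 points for Hoxa region 3 and 5.55 for Hoxa region 7, in the same direction. For Hoxb region 16 this difference was 10.9 points, and for Hoxb region 3 it turned from 18.2 to -10.9. The differences of Hoxc region 1 and Hoxc region 4 also changed sign, from 10.2 to -9.16 and from 4.83 to -9.98. The differences of Hoxd regions 1, 3 and 4 were -32.2, -32.8 and -29.5 points, in the same direction as before.

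In Hoxb, region 16 stood much higher at day 9 than at the other stages, at percentiles 8.48, 53.6 and 17.7. A day 28 minus day 9 difference as low as its -36.0 points was found in 1.61% of all ranked regions. Region 12 did the opposite, at 47.6, 25.3 and 48.1. Region 3 (45.2, 63.3, 55.2) and region 11 (94.2, 91.3, 96.7) moved less. In Hoxc, region 1 stood at 5.76, 15.9 and 30.7 and region 4 at 82.3, 87.1 and 96.1, both higher at each later stage on this scale, though not at day 9 over the whole lists. The values of single regions have no replicate behind them.

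**Figure D4:**
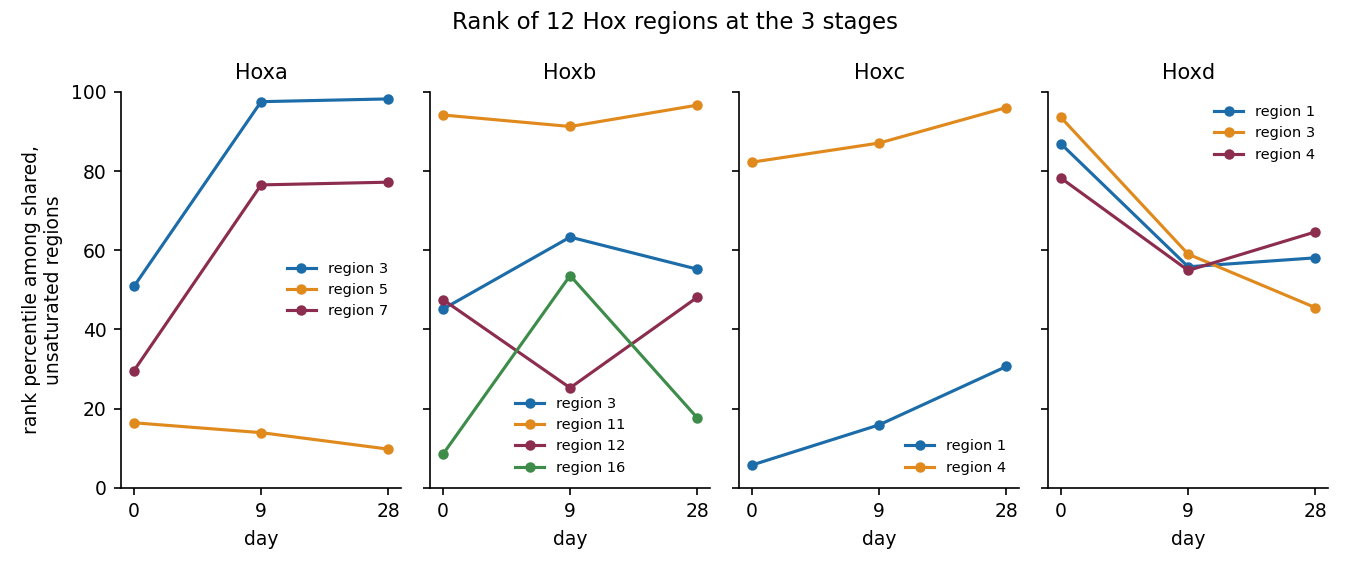
Percentile of 12 Hox regions (y axis, 0 to 100 over shared, unsaturated regions) at day 0, day 9 and day 28 (x axis), 1 line per region, numbered from the low-coordinate end of each window. The 3 Hoxd lines start between 78.3 and 93.6 and lie between 54.9 and 59.0 at day 9, whereas Hoxa regions 3 and 7 stand 46.7 and 47.0 points higher at day 9 than at day 0.

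Hox peaks were widest at day 28. The median width of Hox peaks was 540.5 bp at day 0, 607 bp at day 9 and 868 bp at day 28, against 552, 525 and 702 bp in the whole lists. From day 0 to day 9 the median thus rose in the Hox windows and fell in the whole lists, but the Hox rise depended on the peaks counted. In the Hox regions found at all 3 stages the median fell from 771.5 bp at day 0 to 620.5 bp at day 9. Over all regions found at all 3 stages it fell from 661 to 545 bp. With equal list size the Hox medians were 769 bp at day 0 and 607 bp at day 9. Among the 30 Hox regions with 1 peak at every stage, the day 28 peak was the widest in 24 (80%, against 66.4% of all such regions), and the day 9 peak was the narrowest in 23 (76.7%, against 77.2% of all). The centres of the 3 peaks of a region lay within a median of 73.75 bp of each other (at most 241 bp), against 64.5 bp over all such regions. No Hox region held more than 1 peak of the same list. The widest Hox region, Hoxa region 4, reached 1388 bp at day 0, 1376 bp at day 9 and 1435 bp at day 28.

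The DNA under the peaks could not be read, since no genome of the mm9 build was used here. RefSeq sequences of gene starts (GRCm38.p6, 250 bases before to 50 after the start) were given for 22 of the 38 Hox genes, in 24 stretches. A strict form of the CTCF core (CCA, any 2 bases, AG, any 2 bases, GGC), searched on both strands, was found in 0 of these 24 and in 2.43% of all 32851 stretches. A second form (CC, any 3 bases, AGG, any 1 base, GGC) was tried after the first had given no match, and overlaps it. It was found in 1 of the 24, that of Hoxa11, a gene that patterns the forearm, and in 3.43% of all. The 250 bases before the Hoxa11 start are shown for this match, in capitals, 173 bases before the start.
Hoxa11: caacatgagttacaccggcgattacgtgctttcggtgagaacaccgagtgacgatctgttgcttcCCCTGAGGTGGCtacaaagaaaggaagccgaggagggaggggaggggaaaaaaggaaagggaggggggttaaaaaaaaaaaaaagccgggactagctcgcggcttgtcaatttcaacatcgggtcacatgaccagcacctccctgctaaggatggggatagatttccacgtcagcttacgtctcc
Whether a peak overlaps this stretch was not examined, because the builds differ. The match is a description of these letters only.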

How the data were processed

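CTCF ChIP-seq peaks of MC3T3-E1 cells at day 0, day 9 and day 28 were used, 1 list per stage. Per the labels, 2 biological repeats were made per stage and 2 input libraries from day 9 cells. How they were combined is not given in the sources used here, and the input was not analysed here. Per the submitters' processing notes, the authors used CASAVA 1.6, Bowtie 0.12.8, MACS 1.4.1 and the build mm9. Inserts of 200 ± 50 bp were read for 36 bases. The deposited score of each peak is in the fifth column; peak coordinates are printed counted from 1.

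Peaks were joined across the lists with Python 3.11.15 and pandas 2.3.3, checked on simulated lists. Regions were classed by the lists holding a peak. Percentiles used mid-ranks, with scores of 3100 or more tied. Spacing was measured between region centres, and gaps between region edges. Alternatives were equal list size (42774 peaks per list), a score of at least 200, joining at 50% of the shorter peak, windows shortened by 20 kb at each end, flanks of 250 kb, gaps in place of centre distances, saturated regions kept, and percentiles over whole lists.

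Named regions were all incomplete ones, the highest and lowest complete region, the outermost regions, the first regions outside, the largest gap and the largest changes of rank per cluster. Other regions were named after their values were seen. The members and lists were chosen with earlier results of these data known.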

Additional observations from a re-analysis of the deposited data

How the results depend on the processing

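With peaks joined only at 50% overlap, none of 22 recomputed values moved beyond its error or by over 1.5 times. With equal list size, which keeps day 0 peaks scoring at least 314.5, Hox regions at day 0 alone numbered 5 in place of 12. The later 2 stages without day 0 then had 4 of 39 regions (6.69% of 51583 in the genome), day 28 alone 2 (6.27%), and the outer 2 stages without day 9 had 0 (4.07%). The share at all stages was then 71.8% in the Hox windows and 65.1% in the genome. Hoxb region 16 and Hoxc region 1 lost their day 0 peak in this way, and 7 of the 12 day 0 regions left the lists. With scores of at least 200, 39 Hox regions were left. Of these, 1 lacked only day 28, 1 lacked only day 0 and 0 were at day 28 alone. The genome shares of these classes are not given at this setting, so the counts have no background beside them. Shortened windows left 41 Hox regions, with 1 lacking only day 0 (1.5% in the genome), because Hoxa region 1 lies 2.57 kb inside the window. Flanks of 250 kb gave 0.6 regions per 100 kb around Hoxd. Percentiles over the whole list changed the sign of 3 of 12 day 9 minus day 0 differences (Hoxb region 3, from 18.2 to -10.9, Hoxc regions 1 and 4) and of 4 of 12 day 28 minus day 0 differences: Hoxb region 3 (10.1 to -11.6), region 16 (9.18 to -9.50), region 11 (2.49 to -2.84) and region 12 (0.585 to -17.0). The medians turned from 1.17 to -11.1 and from 5.83 to -10.6. Keeping saturated regions turned the day 9 minus day 0 difference of Hoxb region 11 from -2.90 to 0.736. Equal list size turned the differences of Hoxa region 5 from -2.49 to 4.48 (day 9) and from -6.65 to 0.0342 (day 28). No paired analysis was possible because each stage has 1 list. With depth unknown, absence from a list does not show absence of binding.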
